A study of Homo sapiens with 18 samples.

Results

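FOXA1 sites private to T47D are regions of the genome where FOXA1 was found in T47D and in neither of the other luminal breast cancer lines studied. The members were chosen by the positions of FOXA1 peaks. A site was a merged region that held a peak of both T47D FOXA1 replicates, and it was called private when it overlapped no FOXA1 peak in any of the 4 libraries of MDA-MB-453 and SKBR3. Of 112670 T47D FOXA1 sites, 17206 were private, which is a background rate of 15.3%. A further 51029 sites overlapped a peak in 1 to 3 of those 4 libraries, and 44435 overlapped a peak in all 4 of them and are called sites of all lines here. The peaks themselves chose the members, so their number and their FOXA1 scores are given as a description, with no test.

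The data came from chromatin immunoprecipitation with sequencing (ChIP-seq) of FOXA1 and TLE3 in 3 established human breast cancer lines. No drug or genetic change is named in the labels. T47D is a luminal line positive for the estrogen and progesterone receptors, MDA-MB-453 is luminal and estrogen receptor negative, and SKBR3 is estrogen receptor negative with an amplified ERBB2 gene. There were 2 replicates of each factor in each line, called biological in the labels with no word on how they were grown, and a peak list from each of these 12 libraries was used. FOXA1 was precipitated with a Diagenode antibody and TLE3 with a Proteintech antibody after an extra cross-linking step, so shares of TLE3 reflect a different fixation from that of FOXA1. The FOXA1 lists held 107598 to 188029 peaks and the TLE3 lists 21149 to 94363. Read counts were not used here, so depth is unknown, and a difference in depth cannot be told apart from a difference in binding. The lists hold no RNA levels, and the lines were not checked against marker genes.

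One library stood apart. The TLE3 list of SKBR3 replicate 2 held 94363 peaks against 21149 in SKBR3 replicate 1, and results that rest on it are given with and without it. Among the FOXA1 lists that set the rule, MDA-MB-453 replicate 1 was the longest, and 5697 T47D sites were kept out of the private class by that library alone. Without it 22903 sites were private. The 2 T47D replicates weighed more, since requiring a peak of replicate 2 alone gave 36125 private sites and of replicate 1 alone 30844.

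FOXA1 is a forkhead pioneer factor. It binds its motif in closed chromatin and opens it for other factors, and in luminal breast cells it marks enhancers that the estrogen receptor uses. TLE3 is a corepressor of the Groucho family. It does not read DNA itself and is brought to chromatin by partner factors, among them FOXA1, TCF and HES proteins, where it can recruit histone deacetylases.

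Few private sites lay at gene starts, but these are the places where the sequence under a private site can be read from the RefSeq promoter table of GRCh38.p14. Each promoter window in it runs from 250 bases before a gene start to 50 bases after it. Of 34961 windows, 418 overlapped a private site, a background rate of 1.2%, and 266 of the 418 belonged to protein-coding genes. The forkhead motif was searched as TGTTTAC or TATTTAC on both strands, and a match is a description, not a shown binding site. The 5 windows below are those whose private sites had the best FOXA1 ranks among windows that held the motif. They are shown 5′ to 3′ on the strand of the gene, in lower case, with the motif in capitals (as GTAAACA or GTAAATA where it lies on the other strand).
ZSCAN18, chr19:58098182-58098481, minus strand: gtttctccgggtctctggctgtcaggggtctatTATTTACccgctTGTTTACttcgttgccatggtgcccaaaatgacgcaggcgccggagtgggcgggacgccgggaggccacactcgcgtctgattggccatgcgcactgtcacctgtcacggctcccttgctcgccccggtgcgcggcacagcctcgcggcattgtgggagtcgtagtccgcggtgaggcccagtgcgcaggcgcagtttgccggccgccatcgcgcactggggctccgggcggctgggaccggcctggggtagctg
SOX6, chr11:16356497-16356796, minus strand: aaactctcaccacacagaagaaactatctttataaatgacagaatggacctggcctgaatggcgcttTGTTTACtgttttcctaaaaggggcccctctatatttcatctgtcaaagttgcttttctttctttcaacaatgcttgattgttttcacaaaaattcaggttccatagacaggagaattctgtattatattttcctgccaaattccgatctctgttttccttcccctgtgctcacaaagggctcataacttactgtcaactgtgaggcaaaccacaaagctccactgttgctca
RMST first start, chr12:97464441-97464740, plus strand: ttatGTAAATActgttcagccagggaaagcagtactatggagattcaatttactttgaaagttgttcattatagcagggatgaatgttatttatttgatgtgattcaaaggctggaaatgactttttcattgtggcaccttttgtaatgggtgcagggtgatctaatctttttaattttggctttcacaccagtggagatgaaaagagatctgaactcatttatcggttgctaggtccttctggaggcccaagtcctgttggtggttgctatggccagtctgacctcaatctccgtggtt
RMST second start, chr12:97464843-97465142, plus strand: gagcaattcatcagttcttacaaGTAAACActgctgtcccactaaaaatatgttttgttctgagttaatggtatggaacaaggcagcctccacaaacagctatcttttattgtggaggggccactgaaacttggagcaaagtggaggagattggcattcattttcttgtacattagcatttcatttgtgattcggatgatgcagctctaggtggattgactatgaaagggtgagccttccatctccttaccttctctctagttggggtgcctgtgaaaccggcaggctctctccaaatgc
LOC124903744, chr16:86223023-86223322, minus strand: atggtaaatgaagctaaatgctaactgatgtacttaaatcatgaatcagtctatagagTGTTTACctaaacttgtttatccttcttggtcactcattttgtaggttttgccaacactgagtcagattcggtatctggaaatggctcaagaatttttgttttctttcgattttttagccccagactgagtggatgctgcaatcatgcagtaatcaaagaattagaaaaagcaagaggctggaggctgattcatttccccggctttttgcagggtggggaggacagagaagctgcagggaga

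In all 5 windows the capital letters fell inside the private site itself. ZSCAN18 encodes a zinc finger protein with a SCAN domain, and its window held both forms of the motif, beginning at -217 and -205 from the start. The site there stood at a mean FOXA1 score percentile of 98.2 within the T47D lists and overlapped no T47D TLE3 site. SOX6 encodes an SRY-box transcription factor, and the site at this start, at percentile 91.0, carried TLE3. The long noncoding RNA gene RMST had both windows on the same site, at percentile 82.7, so they count as a single example. LOC124903744, a noncoding RNA gene, is in the 1 Mb interval of chromosome 16 that also holds FOXF1, FOXC2 and FOXL1, described further on.

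Across the 418 promoter windows at private sites, 56 (13.4%) held either forkhead form, close to the 13.2% of 3936 windows at sites of all lines. The share was 9.57% over windows at any T47D FOXA1 site and 5.97% over all promoters. The GATA motif AGATAA was in 10.8% of windows at private sites, 6.73% of those at sites of all lines and 10.3% of all promoters. The AP-2 motif GCCNNNGGC, bound by the TFAP2 factors of luminal cells, was in 17.9% of windows at private sites, 25.1% at sites of all lines and 23.2% of all promoters. The full estrogen response element (GGTCA and TGACC with any 3 bases between them) was in 0 of the 418 windows and in 0.0572% of all promoters, so it was too rare in windows of this length to compare. Sequence outside promoter windows was not analysed here.

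Private sites carried TLE3 in T47D less often than other FOXA1 sites did. A T47D TLE3 site, with a peak of both TLE3 replicates, overlapped 1254 of the 17206 private sites (7.29%), against a background of 21.9% over all T47D FOXA1 sites. The share was 37.2% at sites of all lines. In single libraries, T47D TLE3 replicate 1 had a peak at 1265 private sites (7.35%) and replicate 2 at 3037 (17.7%). The corresponding shares at sites of all lines were 37.4% and 56.9%. With sites from T47D FOXA1 replicate 2 alone, without replicate 1, the share of private sites with a T47D TLE3 site was 3.93%. A lower share was not particular to T47D. FOXA1 sites private to MDA-MB-453 by the same rule carried that line's TLE3 in 6.14%, against 15.8% of all its FOXA1 sites. For SKBR3 the shares were 4.57% and 7.21%. With SKBR3 TLE3 replicate 1 alone they were 13.7% at private sites and 22.5% at sites that were not private.

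The TLE3 lists of the other lines were nearly empty at these sites with 1 exception. The rule did not use TLE3, but it left no FOXA1 peak of those lines at these sites. In T47D 24661 of 28354 TLE3 sites overlapped a FOXA1 site, so scarce TLE3 of the other lines here is not independent of the rule. MDA-MB-453 TLE3 replicate 1 had a peak at 24 private sites (0.139%) and replicate 2 at 7 (0.0407%). SKBR3 TLE3 replicate 1 had a peak at 11 (0.0639%), while replicate 2, the long list, had one at 955 (5.55%). At sites of all lines the same 4 libraries had peaks at 46.6%, 29.6%, 27.4% and 28.8%. Both T47D libraries were therefore above all 4 other libraries at private sites, with the groups not overlapping, whereas at sites of all lines they did overlap.

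The mean share of private sites with a TLE3 peak was 12.5% ± 7.28 (SD, n = 2) in T47D and 1.45% ± 2.73 (SD, n = 4) in the other lines, a difference of 11.1 percentage points. An exact two-sided permutation test of the line labels over the 6 libraries gave p = 0.0667, the smallest that its 15 arrangements allow, so the 0.05 threshold could not be passed. The rule favoured a difference in this direction, so the test does not stand apart from the choice of sites. Without SKBR3 TLE3 replicate 2 the other lines had 0.0814% ± 0.0517 (SD, n = 3), the difference was 12.4 points and the exact permutation p was 0.1, again the smallest possible. As a partial allowance for list length, the share at private sites was divided by the share at sites of all lines. The log2 of this ratio was -2.35 and -1.69 in T47D, -8.38 and -9.51 in MDA-MB-453, and -8.74 and -2.38 in SKBR3. The long SKBR3 list thus lay beside T47D replicate 1 on this scale. In each line the longer TLE3 list had the higher ratio, so the effect of list length was not removed. The mean difference was 5.24 (exact two-sided permutation p = 0.133), and 6.86 without that list (p = 0.1, the smallest its exact arrangements allow). Equally long lists lowered the difference in shares to 6.37 points, a peak of either T47D FOXA1 replicate lowered it to 5.22, leaving out T47D FOXA1 replicate 1 lowered it to 5.52 and T47D TLE3 replicate 2 to 5.90, and calling overlap by centres within 250 bp lowered the log2 difference to 2.39. With a peak of either T47D FOXA1 replicate the exact permutation p for the difference in shares was 0.133. It was also 0.133 without T47D FOXA1 replicate 1, without replicate 2, and without MDA-MB-453 FOXA1 replicate 1. In these settings another arrangement was at least as extreme as the T47D labels. The exact permutation p for the log2 difference was 0.333 with equally long lists and with the upper 50% of each list.

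**Figure D1:**
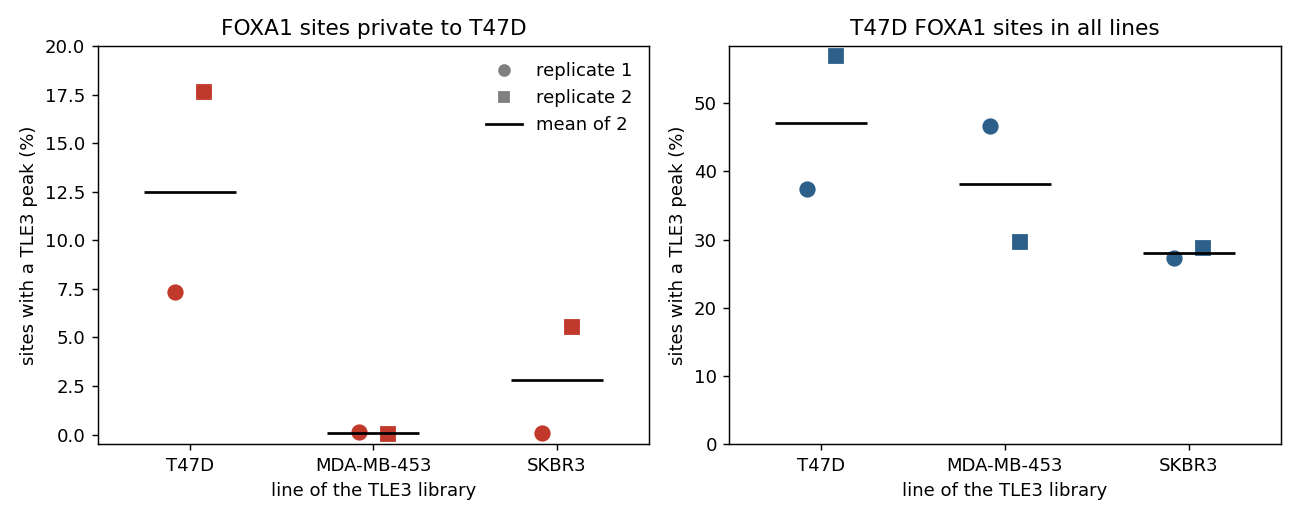
Percent of FOXA1 sites with a TLE3 peak in each of 6 TLE3 libraries, at the 17206 sites private to T47D (left) and the 44435 sites of all lines (right). Points are libraries and lines are means of 2. At private sites both T47D libraries (7.35% and 17.7%) lie above the other 4, and SKBR3 replicate 2 (5.55%) lies apart from SKBR3 replicate 1 (0.0639%).

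Read from the side of TLE3, private FOXA1 sites held a small part of T47D TLE3 binding. Of 28354 T47D TLE3 sites, 1256 (4.43%) overlapped a private FOXA1 site. Of these 1256, 1110 (88.4%) overlapped no TLE3 peak of another line, and the count was 1213 (96.6%) without SKBR3 TLE3 replicate 2. Over all T47D TLE3 sites the same shares were 22.6% and 33.3%. This contrast too is tied to the rule, which left no FOXA1 peak of another line at the private sites. Conversely, 17.3% of the 6422 TLE3 sites that were found in T47D alone lay on a private FOXA1 site. The median TLE3 score percentile was 55.4 for TLE3 sites on private FOXA1 sites and 63.7 for the others.

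Private sites ranked low among T47D FOXA1 sites. The authors' score of each peak, whose quantity is not named, is used here as a percentile within its list, averaged over both replicates. The median was 38.3 (interquartile range 24.9 to 54.9) for private sites, with 37.9 in replicate 1 and 41.3 in replicate 2. Sites in 1 other library had a median of 41.1, sites in 2 had 51.5, in 3 had 57.7, and sites of all lines had 79.1. The deposited score itself had medians of 12.4 and 12.03 at private sites against 51.8 and 41.5 at sites of all lines. The median width was 388 bp against 593 bp. Sites private to MDA-MB-453 and to SKBR3 also ranked low in their own lists, with median percentiles of 40.7 and 41.9.

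When the percentile scale was cut into 10 equal bins, the private share went from 35.7% of sites in bin 1, the lowest, to 1.41% in bin 10, where 202 of 14350 sites were private. Only 2 of the 1000 best ranked T47D sites were private, 24 of the best 5000 and 113 of the best 10000. Of the best 50000 sites 2638 were private. When T47D sites were restricted to the upper 50% by score and the other lines' lists were kept whole, 3431 sites were private and 21.3% of these carried T47D TLE3. The share at sites that were not private is not given for that setting, so 21.3% is not to be set against the share over all sites. Among the best 50000 sites TLE3 was at 24.9% of the private sites and 40.8% of the others.

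**Figure D2:**
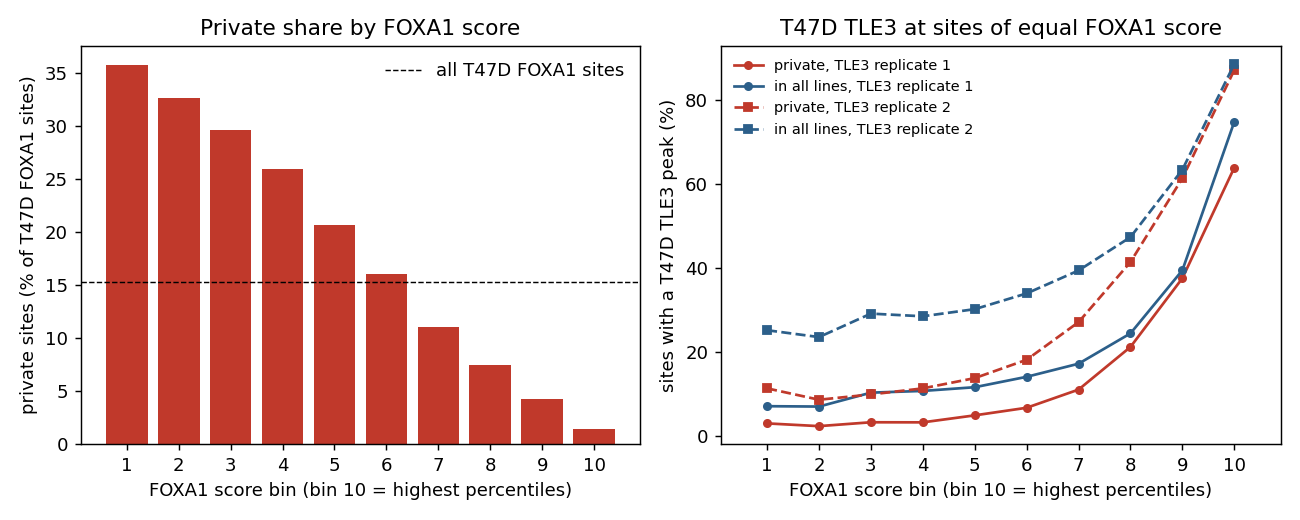
Left, the percent of T47D FOXA1 sites that were private in each of 10 bins of the FOXA1 score percentile (bin 10 is the highest), with the share over all sites as a dashed line (15.3%). Right, the percent of private sites (red) and sites of all lines (blue) with a T47D TLE3 peak in the same bins, for TLE3 replicate 1 (solid) and replicate 2 (dashed). The private share goes from 35.7% to 1.41%, and red points lie below the blue points of the same replicate.

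TLE3 shares climbed steeply with the FOXA1 score, so private and other sites were also compared within the 10 bins, which is called equal score here. Scores within a bin were not matched further, so a difference in score inside a bin remains possible. In bin 2, 2.24% of private sites carried a T47D TLE3 site, against 5.97% of sites that were not private. In bin 9 the shares were 37.2% and 37.9%, and in bin 10 63.9% and 73.6%. Private sites were below in 10 of 10 bins, by under 1 point in bins 8 and 9. At the top ranks the gap was not constant. Among the best 5000 sites TLE3 was at 91.7% of the 24 private sites and 90.3% of the others. Among the best 10000 it was at 76.1% of 113 private sites and 81.1% of the others. With the other sites weighted to the spread of the private ones over the 10 bins, the share was 7.29% at private sites and 10.8% at the others, a difference of -3.52 points. Against sites of all lines weighted likewise (13.6%) it was -6.31 points. The difference from sites that were not private was -3.40 points with T47D TLE3 replicate 1 and -7.82 with replicate 2. Equally long lists gave -1.96 points and overlap by centres within 250 bp -2.05.

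The gap at equal score was larger at gene ends. The 1460 private sites within 1 kb of either end of a gene carried T47D TLE3 in 10%, against 21.4% of other sites there at equal score, a difference of -11.4 points. Beyond 1 kb the shares were 7.04% and 9.17%, a difference of -2.13 points. Neither difference was tested over libraries. Both replicates went the same way, with -10.4 and -22.2 points at gene ends and -2.18 and -5.11 beyond. Private sites with TLE3 had a median FOXA1 percentile of 66.5 and those without it 37.1. Their median widths were 559.5 and 382 bp.

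The same measure was taken for the FOXA1 sites private to each other line with that line's own TLE3 lists. In MDA-MB-453, 33519 of 135315 sites (24.8%) were private, and at equal score they carried TLE3 more often than other sites, by 3.83 and 1.20 points in the 2 replicates. In SKBR3, 16132 of 90520 sites (17.8%) were private, and the difference was 4.24 points with TLE3 replicate 1 and -6.48 with the long list of replicate 2. T47D differed from MDA-MB-453 by -8.12 points (means -5.61 ± 3.13 and 2.51 ± 1.86, SD, n = 2 each), and the replicates of the lines did not overlap. The exact two-sided permutation p was 0.333, which is the smallest that 2 against 2 libraries allow. For T47D against SKBR3 the difference was -4.49 points (exact permutation p = 0.667), with overlapping replicates. Without SKBR3 TLE3 replicate 2 it was -9.85 points, the remaining SKBR3 value lay above both T47D values, and the exact permutation p was 0.333, the smallest that 3 libraries allow. The larger gap at gene ends was also seen with SKBR3 TLE3 replicate 2, at -22.8 points there and -3.64 beyond 1 kb. SKBR3 replicate 1 had 4.19 and 4.32 points. The MDA-MB-453 replicates had 1.36 and 0.713 points at gene ends and 3.98 and 1.19 beyond.

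By the rule no private site overlapped a FOXA1 peak of the other lines, but many lay close to one. The median gap to the nearest such peak was 4195 bp. It was under 1 kb for 18.0% of private sites, and 4265 sites (24.8%) were more than 10 kb away. Near the threshold, 127 private sites lay within 100 bp of an other-line peak, with a median FOXA1 percentile of 32.7 and TLE3 at 13.4% of them. Just outside the rule, 69 sites overlapped other-line peaks by under 100 bp, with a median percentile of 27.0 and TLE3 at 13.0%. Among sites beyond 10 kb the median percentile was 39.7 and TLE3 was at 6.54%. Requiring a gap of 1 kb left out 3089 sites.

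Private sites lay less often at genes than other FOXA1 sites. Within 1 kb of a gene end lay 8.49% of private sites, against a background of 12.1% over all T47D FOXA1 sites and 13.2% of sites of all lines. Within 1 kb of a gene start of the promoter table the shares were 3.86%, 7.31% and 8.30%. A protein-coding gene covered 43.4% of private sites, 47.6% of all sites and 50.4% of sites of all lines. Private sites with TLE3 were at gene ends in 11.6% and those without it in 8.24%. Of the sites private to MDA-MB-453, 7.20% were at gene ends, against 11.2% of all its FOXA1 sites. For SKBR3 the shares were 7.36% and 10.5%. The gene table gives no exons, so sites inside a gene are not divided into exonic and intronic.

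The strongest private sites included those nearest SERPINA6, TRPC6, PRLR and ESR1, and all 10 of the best ranked carried T47D TLE3. At such ranks this is usual, since TLE3 was at 97.5% of the sites that were not private among the 1000 best ranked T47D sites and at 90.3% among the best 5000. All positions are on hg38. The site of best rank was on chromosome 14, 94334478 to 94335597, 11702 bp from SERPINA6, which encodes the cortisol-binding globulin of plasma. Its score was 494 in replicate 1 and 432 in replicate 2, it stood at percentile 99.6 and rank 476 of all T47D sites, and the nearest FOXA1 peak of another line was 1882 bp away. Next came a site at percentile 99.3 on chromosome 11, 101440744 to 101442697, 9843 bp from TRPC6, a cation channel gene, with scores of 441 and 390. A site on chromosome 5, 35350805 to 35351863, had scores of 421 and 399 and the percentile 99.3, and its nearest protein-coding gene was PRLR, the prolactin receptor, at 120847 bp. The other 7 were nearest to RALGAPA2, KIF4B, CRIM1, EXOC4, ZNF587B, ESR1 and STARD13, at percentiles from 98.2 to 99.0. CRIM1 was 1058210 bp from its site, so nearest does not mean close.

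Ranking private sites by T47D TLE3 score gave a partly different set. The best, at a TLE3 percentile of 99.2, lay inside EXOC4, an exocyst subunit gene, on chromosome 7, 133977301 to 133978290, at FOXA1 percentile 98.6. Next was a site inside JPH2, which encodes a junctophilin, on chromosome 20, 44141940 to 44143130, at TLE3 percentile 99.1. PRLR, KIF4B and TRPC6 were among the 10 by both ranks. A strong TLE3 rank did not require a strong FOXA1 rank. The site nearest MPHOSPH6 stood at TLE3 percentile 99.0 and FOXA1 percentile 10.9, with deposited FOXA1 scores of 6.49 and 6.77. A FOXA1 peak of another line lay 380 bp from it. Sites inside ERCC6, ARHGEF18 and AFF3 were also among the 10.

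Around genes, sites were counted in the gene with 50 kb on each side. Of 19974 protein-coding genes, 9303 had a private site there, a background of 46.6%, and 1524 (7.63%) had one with T47D TLE3. Among 4824 genes with at least 10 T47D FOXA1 sites the median private share was 10%. Long genes hold more sites, so counts are given with the share. Sums over a list count a site once for each gene it is near, so a site between neighbouring genes enters more than once.

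ESR1, the gene of estrogen receptor alpha, had 30 private sites among 63 T47D FOXA1 sites (47.6%), 6 of them with TLE3. The FOXA1 libraries had 86 and 76 peaks there in T47D, 50 and 43 in MDA-MB-453, and 35 and 36 in SKBR3. All lines therefore had FOXA1 at the locus, with T47D highest. The best private site, on chromosome 6, 151642777 to 151644145, lay 13211 bp outside the gene table's ESR1 interval and had scores of 406 and 242, percentile 98.3 and TLE3. PGR, the progesterone receptor gene and a classic estrogen target, had 14 private sites of 36 (38.9%), 1 of them with TLE3. Peaks there numbered 48 and 40 in T47D, 20 and 19 in MDA-MB-453, and 10 and 9 in SKBR3. The site with TLE3 lay inside the gene on chromosome 11, 101033785 to 101034881, at percentile 98.2, and the next private site at PGR reached 70.7.

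GREB1, an estrogen-induced cofactor of the estrogen receptor, had 21 private sites of 40 (52.5%). Of these 21, 8 carried TLE3. Peaks numbered 46 and 52 in T47D, 22 and 15 in MDA-MB-453, and 13 and 16 in SKBR3. Its best private site, on chromosome 2, 11542357 to 11543210, stood at percentile 93.2 with TLE3. PRLR had 27 private sites of 56 (48.2%), but 0 of the 27 carried TLE3, since the strong site with TLE3 named above lay outside its 50 kb. The FOXA1 peaks at PRLR numbered 84 and 71 in T47D, 30 and 19 in MDA-MB-453, and 22 and 23 in SKBR3. RERG, an estrogen-regulated growth inhibitor of the RAS family, had 17 of 33 (51.5%), also with 0 carrying TLE3. Without T47D FOXA1 replicate 2 the private counts were 48 at ESR1, 24 at PGR, 52 at PRLR and 33 at RERG, and without replicate 1 they were 41 at PRLR and 30 at GREB1. Those settings need a peak of the remaining T47D replicate only, and all private sites then numbered 30844 and 36125, against 17206. The counts thus rose along with the whole set, and shares at these genes are not given for these settings.

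These 4 genes, GREB1, PGR, PRLR and RERG, set the value of the estrogen and progesterone response list. Of its 25 genes 19 had a private site, 6 had one with TLE3, and summed over its genes 112 of 411 T47D FOXA1 sites were private (27.3%, against 13.0% summed likewise over all protein-coding genes). TFF1 and TFF3, for example, are neighbours. That was the highest share of 12 lists. In the 13 other settings that can change it the share ran from 19.6% to 39.1% and was the highest in each, but without the densest 1% of 1 Mb intervals the basal identity list was level with it at 19.6%. The 4 genes held 79 of the 112 private sites, and without them 33 of 246 were private (13.4%). Taking out the 4 leading genes lowers any list, and the other 11 lists then had 0% to 9.22%. FKBP5, a co-chaperone of steroid receptors, had 8 of 26 (13 without MDA-MB-453 FOXA1 replicate 1), and TFF1, a secreted trefoil peptide and a standard estrogen target, had 1 of 10 (2 without the same library). XBP1 and AREG had 0 of 21 and 0 of 13. Without MDA-MB-453 FOXA1 replicate 1 all private sites numbered 22903, so counts in that setting stand beside a general rise.

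Luminal identity genes had a private site in 19 of 22, but the private share of their sites was 15.8%. It was 7.95% without its 4 leading genes, ESR1, TRPS1, AGR3 and GRHL2. At FOXA1 itself 4 of 27 sites were private and at GATA3, a luminal lineage factor, 1 of 20. Without T47D FOXA1 replicate 2 these counts were 7 and 4, and without MDA-MB-453 FOXA1 replicate 1 GATA3 also had 4. The basal identity list had 11 of 18 genes and 15.6% of sites, with ACTA2 at 7 of 16 and VIM at 5 of 8, and neither had TLE3 at a private site. The ERBB list had 9 of 17 genes and 12.6% of sites, with ERBB4 at 14 of 86 and ERBB2 at 0 of 10. ERBB4 had 38 private sites without T47D FOXA1 replicate 2, 23 without replicate 1 and 27 without MDA-MB-453 FOXA1 replicate 1. The androgen and apocrine list had 9 of 19 genes and 10.5% of sites. Cell cycle genes (14.4% of sites), WNT and TCF genes (12.1%), genes of other cell types (10.8%) and those of epithelial-mesenchymal transition and TGF-beta (10.3%) lay near the share over all genes. The corepressor list, with TLE3 itself at 3 of 13 sites, had 8.96%, the housekeeping list 8.70%, and the NOTCH and HES list 4.59%, from 5 of 109 sites. Several of these shares depended on single FOXA1 libraries. Private sites as a whole also rose from 17206, to 22903 without MDA-MB-453 FOXA1 replicate 1. They numbered 36125 without T47D FOXA1 replicate 1 and 30844 without T47D FOXA1 replicate 2. Over all protein-coding genes the share ran from 13.0% to 20.9% with 1 library left out at a time. The shares below are therefore not to be set against the 13.0% of the main run. Without MDA-MB-453 FOXA1 replicate 1 the share was 17.7% for the androgen and apocrine list, 19.3% for the ERBB list, 14.9% for corepressors, 18.5% for housekeeping and 11.9% for NOTCH and HES. Without T47D FOXA1 replicate 1 it was 20.9% over all genes, 20.9% for WNT and TCF, 19.3% for the ERBB list, 19.2% for other cell types, 15.1% for corepressors and 12.1% for NOTCH and HES. Without T47D FOXA1 replicate 2 it was 19.8% for the ERBB list, 18.7% for WNT and TCF, 16.7% for other cell types, 16.2% for the androgen and apocrine list, whose genes with a private site then numbered 15, and 14.9% for NOTCH and HES.

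**Figure D3:**
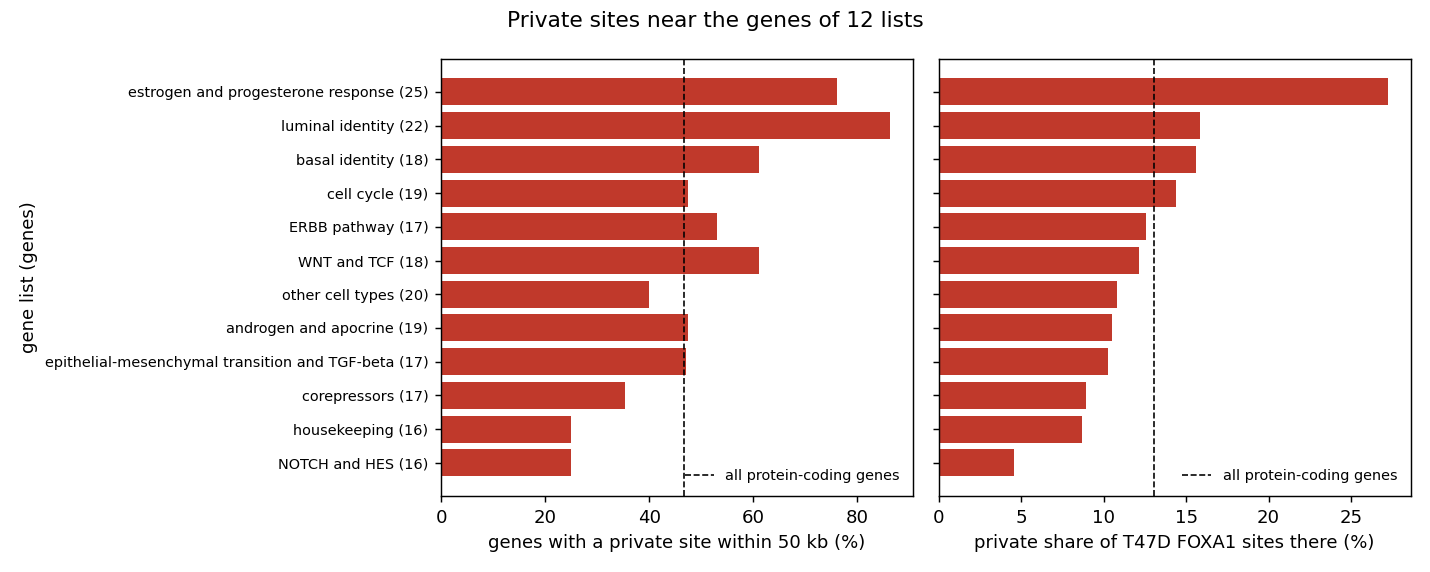
For each of 12 gene lists, with its number of genes, the percent of genes with a private site in the gene with 50 kb on each side (left) and the percent of T47D FOXA1 sites there that were private (right). Dashed lines are the values over all protein-coding genes (46.6% and 13.0%). The estrogen and progesterone response list has the highest site share (27.3%) and the luminal list the highest gene share (19 of 22).

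The gene with most private sites was MED13L, a subunit of the Mediator kinase module, with 60 of 93 (64.5%), 5 of them with TLE3. FOXA1 peaks there numbered 117 and 113 in T47D, 34 and 28 in MDA-MB-453, and 16 and 20 in SKBR3. PHACTR1, a regulator of phosphatase and actin, had 37 of 75 (49.3%), and its best private site stood at percentile 97.0 with TLE3. OPCML, a cell adhesion gene, had 24 of 40 (60.0%), with 50 and 66 peaks in T47D, 32 and 24 in MDA-MB-453, and 4 and 4 in SKBR3. Very long genes were also among the 10 with most private sites. NAALADL2 had 49 of 196, DLG2 34 of 145, CTNNA3 28 of 99, PCDH15 28 of 69 and GPC6 27 of 86, and these 5 genes span 1191492 to 2173362 bp and OPCML 1117521 bp, against a median of 24170.5 bp over all protein-coding genes. Without T47D FOXA1 replicate 1 the counts were 49 at OPCML, 80 at NAALADL2, 74 at DLG2, 59 at CTNNA3 and 52 at PCDH15, and without replicate 2 GPC6 had 52. All private sites then numbered 36125 and 30844, so these counts rose along with the whole set.

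**Figure D4:**
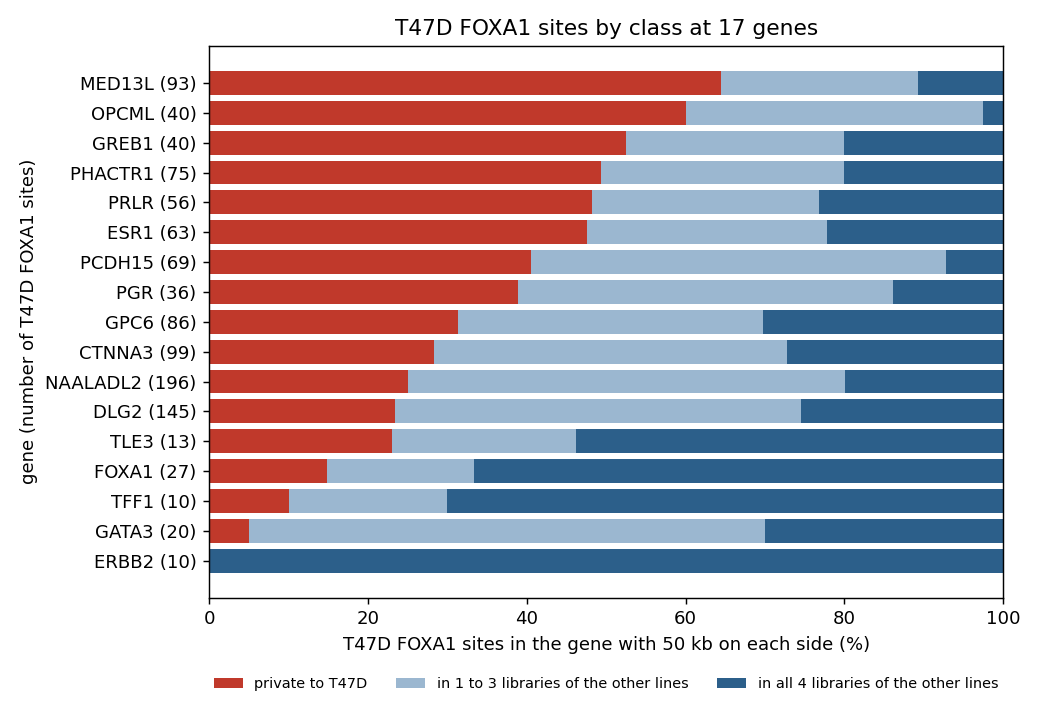
Share of T47D FOXA1 sites that were private (red), in 1 to 3 libraries of the other lines (light blue) or in all 4 (dark blue) at 17 genes with 50 kb on each side. The number of sites is in brackets. MED13L (64.5%), OPCML (60.0%) and GREB1 (52.5%) have mostly private sites, while ERBB2 has 0.

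By share, among genes with at least 10 T47D FOXA1 sites, E2F6, a transcriptional repressor beside GREB1 on chromosome 2, was first with 11 of 15 (73.3%), and its best ranked private sites are also counted at GREB1. GASK1A had 10 of 14 and HOXB4, a homeobox gene, 7 of 10 (12 private without T47D FOXA1 replicate 2). At HOXB4 the FOXA1 libraries had 18 and 11 peaks in T47D, 8 and 3 in MDA-MB-453, and 0 and 0 in SKBR3. SERPINA10, a protease inhibitor gene next to SERPINA6, had 9 of 14, and SERPINA6 had 11 of 18, with sites in common. SGCZ had 22 of 33 (36 private without T47D FOXA1 replicate 1), TYRP1, a melanin pathway enzyme gene, 11 of 17, and MARCHF8, a ubiquitin ligase gene, 12 of 19. SGCZ and MARCHF8 had 0 private sites with TLE3. The counts at HOXB4 and SGCZ without a T47D FOXA1 replicate stand beside the rise in all private sites given above.

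Private sites tended to have private neighbours. For 26.7% of private sites the nearest T47D FOXA1 site was also private, against 13.1% of sites that were not private and a share of 15.2% over all sites. The same was seen in the other lines, with 37.2% against 20.7% in MDA-MB-453 and 30.5% against 15.8% in SKBR3. With private sites chained at gaps of at most 10 kb, 4738 of them (27.5%) fell into 1935 clusters and 12468 stood alone. Most clusters were small, since 1484 were pairs, 76 held at least 5 sites and 13 at least 10.

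The largest cluster, with 22 private sites among 30 T47D sites, covered the higher-coordinate end of the MED13L interval on chromosome 12, 116243312 to 116303440, and 4 of the 22 carried TLE3. A second cluster of 14 lay further into the gene. The ESR1 cluster on chromosome 6, 151635661 to 151702416, held 19 private sites of 26, and 5 of them carried TLE3. On chromosome 9 clusters of 16, 15 and 11 private sites lay at LURAP1L, at 59907 bp from MPDZ, and at TYRP1, in that order. On chromosome 4 a cluster of 15 of 17 lay 538755 bp from the nearest protein-coding gene, NDST4, with a median FOXA1 percentile of 69.5. DERA on chromosome 12, an aldolase gene, had 13 of 14, PHACTR1 had 13 of 18, and a cluster of 14 of 15 on chromosome 21 was nearest to LOC101927345, 350765 bp away. Other-line FOXA1 peaks were not absent from these intervals. There were 28 such peaks, over the 4 libraries, within the largest MED13L cluster and 19 within the ESR1 cluster. The DERA cluster and those nearest to NDST4 and LOC101927345 held 3 each.

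Over larger distances, the private share of T47D FOXA1 sites ranged from 7.55% on chromosome 22 and 9.33% on chromosome 2 to 20.9% on chromosome 9. Among 2355 intervals of 1 Mb with at least 20 sites the median share was 13.0% (interquartile range 7.69% to 20%), 20 intervals were above 50%, and 91 had no private site. On chromosome 16, 86000001 to 87000000, around the forkhead genes FOXF1, FOXC2 and FOXL1, 29 of 37 sites were private (78.4%). FOXA1 peaks in that interval numbered 40 and 55 in T47D, 15 and 7 in MDA-MB-453, and 5 and 6 in SKBR3. On chromosome 12, 116000001 to 117000000, with MED13L, 79 of 147 were private. Leaving out the densest 1% of intervals gave 16495 private sites and 26.2% with a private neighbour. DNA copy number was not measured, and its part in these regional shares was not tested.

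**Figure D5:**
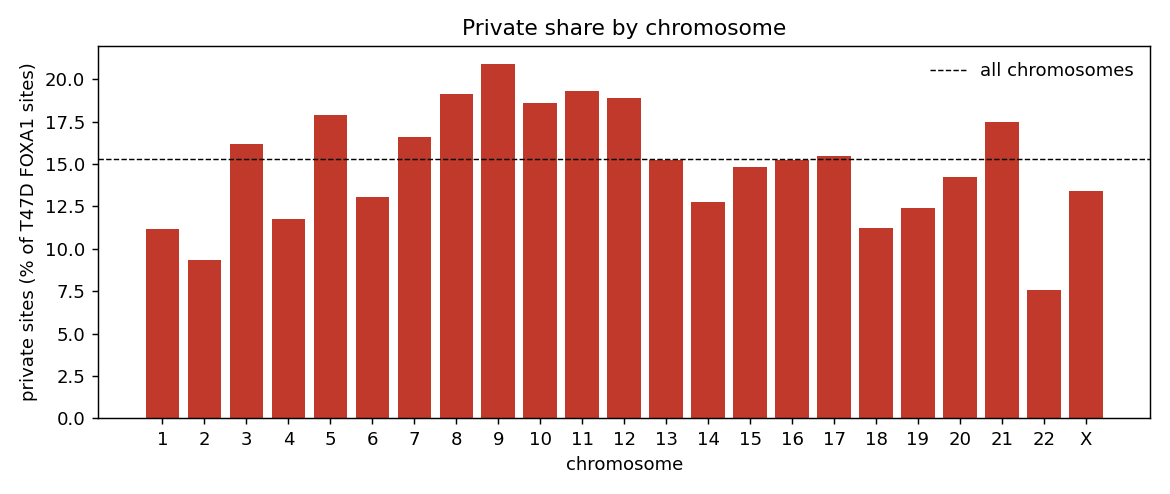
Percent of T47D FOXA1 sites that were private on each chromosome, with the share over all chromosomes as a dashed line (15.3%). Chromosome 9 is highest (20.9%) and chromosome 22 lowest (7.55%).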

How the data were processed

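FOXA1 and TLE3 ChIP-seq peak lists of 12 libraries were used. The series also lists 6 input samples, which were not analysed here. The submitters' processing notes name hg38, MACS2, SAMtools, BWA 0.7.5a and Trim Galore. How MACS2 was set, and against which control, is not given in the sources used here. A deposited list has a chromosome, start, end, name and score per peak, called per library and not on pooled replicates. The quantity behind the authors' score is not named, so peaks were ranked by it only within a list, and printed scores describe the peaks of that list. Of 1134209 peaks, 15 outside chromosomes 1 to 22 and X were left out.

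Intervals sharing 1 bp or more were taken to overlap. Genes were placed with a RefSeq table of GRCh38.p14, the same build, and distances run from the centre of a site. Strand is not in this table, and distance to either gene end took the place of distance to a start. The members and the 12 gene lists (224 entries, all matched) were chosen with earlier results of these data known. Named genes are those nearest the 10 best ranked private sites by FOXA1 and by TLE3, those of the 10 largest clusters, the 10 with most private sites and the 10 of highest private share, the leading 3 of each list, and ESR1, PGR, GREB1, TFF1, FOXA1, GATA3, TLE3 and ERBB2; only some are printed, and results for some genes named by this rule are not reported here. Genes singled out beyond this rule (SERPINA6 counts, XBP1, AREG, the forkhead genes of chromosome 16) were chosen after their values were seen.

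Shares per TLE3 library were compared by exact two-sided permutation with a threshold of 0.05, in Python 3.11.15, and p-values measure the spread between these libraries, which may be technical. Replicates are numbered in the titles, with nothing that ties equal numbers together. The scripts were tested on simulated data.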

Additional observations from a re-analysis of the deposited data

Results flagged for a closer look

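The comparison of private with other FOXA1 sites at equal FOXA1 score went opposite ways in 2 lines. The TLE3 share was lower at private sites with both T47D TLE3 libraries (-3.40 and -7.82 points) and higher with both MDA-MB-453 TLE3 libraries (3.83 and 1.20 points). The difference between the lines was -8.12 points. The exact two-sided permutation test over these 4 libraries gave p = 0.333, the smallest it can give, so the difference did not pass the threshold and could not have. In 10 bins of the score, private sites were below the others in 10 in T47D and in 3 in MDA-MB-453.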

How the results depend on the processing

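The lower TLE3 share of private sites at equal score and both differences between T47D and the other lines' TLE3 libraries kept their direction in every alternative run. For both differences between libraries the rule itself favoured this direction. With the replicate number as a block, the differences remained 11.1 points (exact permutation p = 0.111) and 5.24 (p = 0.222); equal numbers share no named batch. Leaving out 1 library at a time gave 5.52 to 16.2 points, 4.21 to 6.86 on the log2 scale, and -7.82 to -2.67 points at equal score. It gave 18440 to 36125 private sites, 3.93% to 17.7% with TLE3, a median percentile of 27.0 to 38.9, 27.6% to 34.8% with a private neighbour, 7.57% to 9.59% at gene ends, and 9727 to 13626 genes. The number of private sites was 11421 with the upper 50% of each list, 48943 with a peak of either T47D replicate and 3431 with T47D alone restricted to its upper 50%. The last setting, chosen after seeing the data, gave TLE3 at 21.3% of private sites, with no share of other sites beside it. The median percentile was 37.1 with the upper 50% of lists, 36.2 with equally long lists, 39.7 by centres and 24.7 with either replicate, which also gave 37.7% with a private neighbour and 15531 genes. Sites at gene ends came to 18.5% within 3 kb, 3.56% at protein-coding genes alone and 3.86% at gene starts (added after seeing the data). Genes numbered 5227 within 10 kb and 6155 by nearest gene. Depth could not be examined.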
